A study of Mus musculus with 2 samples.

Results

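Pairs of transcripts of 1 gene that begin and end alike but carry different internal exons were compared between CD69-positive double-positive (DP) thymocytes of 2 genotypes. In 1516 of the 24532 gene IDs of the deposited transcript tables, the 2 leading transcripts formed such a pair. The gene had to lie on 1 locus and reach a summed transcript level of 10 TPM (a length-corrected abundance scaled to the library) in each library. The 2 transcripts with the highest TPM summed over both libraries were taken, both with at least 2 exons, and the pair was kept where the 3' boundary of the first exon and the 5' boundary of the last exon were shared. Members were thus chosen on levels, and these levels are a description. They were not chosen on the difference between the libraries.

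One library was labelled wild-type (NSRP1f/f) and 1 was labelled KO (NSRP1f/fCD4Cre, a conditional knockout of NSrp70). Both groups carry the floxed alleles, both are C57BL/6 mice of 6 weeks, and the sorted cells were CD69+ DP thymocytes. The Cre transgene is driven by the CD4 promoter. The number of animals behind each library is not stated. With 1 library per group there was no replicate check and no test was made: a difference of 10 percentage points or more is called here as a rule of size, and intervals cover counting error only. PCR copies are not independent molecules.

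Nsrp1, which encodes the nuclear speckle protein NSrp70, had 29.7 TPM (wild-type label) and 29.6 TPM (KO label). Wherever a pair of values follows without further words, the wild-type label comes first and the KO label second. Its RNA level thus did not show the deletion that the label states, and every direction below is between the libraries as labelled. All 9 DP thymocyte markers were present, at 35.5 to 1377 TPM and 44.3 to 1679 TPM. The 3 B cell markers summed to 21.4 and 25.2 TPM, and the 4 myeloid markers summed to 80.2 and 63.5 TPM, most of it Lyz2. The 4 thymic epithelium markers summed to 7.08 and 8.54 TPM, most of it Epcam (6.87 and 8.35 TPM). The 3 erythroid markers summed to 0.85 and 1.17 TPM. Of these 2 lists, Krt5, Krt8 and Hba-a1 were listed at 0 in both libraries. The part of these other cells in the results was not tested. Exon coverage summed to 4199 and 5076 megabases.

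A cassette exon is an internal exon that the spliceosome either joins into the mRNA or skips along with its flanking introns. Other pairs differ by a shifted 5' edge of an exon (alternative acceptor), a shifted 3' edge (alternative donor), a retained intron, or a choice between 2 exons of which 1 is used (mutually exclusive exons). SR proteins, hnRNPs and other RNA-binding factors bind in and around such exons and set how often they are used. An exon whose length is not a multiple of 3, or one that holds a stop codon, changes the reading frame or ends it, and several genes of splicing factors limit their own expression through such "poison" exons.

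Of the 1516 pairs, 730 (48.2%) differed by 1 cassette exon, 385 by an alternative acceptor and 117 by an alternative donor. A further 96 differed by several cassette exons, 149 by several stretches of mixed kind, 22 by mutually exclusive exons and 17 by a retained intron. The genes lay on 20 chromosomes, 1506 were protein coding, and 811 had no other annotated transcript than the pair. The pair held at least 90% of the gene's TPM in both libraries in 1125 genes. The outer ends of the transcripts were identical in 1412 pairs. The share of the longer-spliced transcript, which has more exonic bases between the shared boundaries, in the TPM of its pair is the first measure used below.

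The sequences below are those of exons on which later results turn, with the differing bases in capitals and 20 bases of the spliced mRNA on each side in lower case. They come from GENCODE transcripts of GRCm38, the build of the deposited files (mm10). The first set are cassette exons, all coding: in the deubiquitinase gene Usp4, in Atp2a3 (the SERCA3 calcium pump of the endoplasmic reticulum), in Map3k7 (TAK1, a kinase of NF-kB signalling), in Mbnl2 (a muscleblind splicing regulator) and in Sptan1 (alpha-II spectrin).
Usp4 (chr9:108365830-108365970, plus strand, 141 bases): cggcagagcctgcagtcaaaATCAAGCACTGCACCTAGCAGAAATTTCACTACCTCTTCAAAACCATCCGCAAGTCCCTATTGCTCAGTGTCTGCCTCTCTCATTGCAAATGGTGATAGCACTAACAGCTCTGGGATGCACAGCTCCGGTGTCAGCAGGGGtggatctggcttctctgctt
Atp2a3 (chr11:72989475-72989547, plus strand, 73 bases): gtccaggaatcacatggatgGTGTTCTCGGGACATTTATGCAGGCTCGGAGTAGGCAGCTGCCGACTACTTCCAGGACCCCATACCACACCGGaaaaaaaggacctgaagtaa
Map3k7 (chr4:31994874-31994954, plus strand, 81 bases): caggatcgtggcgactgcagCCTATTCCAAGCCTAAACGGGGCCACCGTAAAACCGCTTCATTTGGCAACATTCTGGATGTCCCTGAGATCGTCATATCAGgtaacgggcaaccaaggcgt
Mbnl2 (chr14:120395712-120395765, plus strand, 54 bases): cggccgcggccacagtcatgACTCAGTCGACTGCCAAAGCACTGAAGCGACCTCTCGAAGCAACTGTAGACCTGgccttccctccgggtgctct
Sptan1 (chr2:30001100-30001159, plus strand, 60 bases): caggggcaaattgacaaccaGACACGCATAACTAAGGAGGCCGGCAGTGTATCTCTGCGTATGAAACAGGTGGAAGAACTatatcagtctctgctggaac

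The second set are alternative acceptors with a large difference of share between the libraries. The extra bases lie at the 5' edge of the exon and are in capitals. The genes encode a phosphatase-like protein (Ctdspl2), the scaffold of the CCR4-NOT deadenylase (Cnot1), the nuclear import receptor of SR proteins (Tnpo3), a ubiquitin ligase of the spliceosome (Prpf19), a zinc finger protein (Pogz) and the sheddase that releases TNF from the cell surface (Adam17).
Ctdspl2 (chr2:121978892-121978894, plus strand, 3 bases): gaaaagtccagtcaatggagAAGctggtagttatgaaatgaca
Cnot1 (chr8:95774723-95774728, minus strand, 6 bases): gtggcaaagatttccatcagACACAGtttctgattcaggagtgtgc
Tnpo3 (chr6:29554963-29554980, minus strand, 18 bases): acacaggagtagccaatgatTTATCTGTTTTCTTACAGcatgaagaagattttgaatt
Prpf19 (chr19:10898926-10898982, plus strand, 57 bases): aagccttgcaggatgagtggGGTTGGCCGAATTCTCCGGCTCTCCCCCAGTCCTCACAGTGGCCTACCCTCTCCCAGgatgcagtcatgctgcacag
Pogz (chr3:94864458-94864484, plus strand, 27 bases): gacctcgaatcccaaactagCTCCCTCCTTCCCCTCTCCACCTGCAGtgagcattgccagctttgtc
Adam17 (chr12:21347431-21347449, minus strand, 19 bases): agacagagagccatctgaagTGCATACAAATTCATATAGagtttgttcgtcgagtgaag
Each of the stretches printed here ends in AG, the dinucleotide that closes an intron, which lies just before the acceptor of the shorter form.

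The third set are mutually exclusive exons of equal length, in 5' to 3' order, with the bases that differ between the 2 exons in capitals. Pkm encodes pyruvate kinase, whose M1 form uses the first and whose M2 form uses the second of these exons. U2af1 encodes the small subunit of the factor that binds the acceptor AG, and Mapk14 encodes the p38 alpha kinase.
Pkm (chr9:59675029-59675195, plus strand): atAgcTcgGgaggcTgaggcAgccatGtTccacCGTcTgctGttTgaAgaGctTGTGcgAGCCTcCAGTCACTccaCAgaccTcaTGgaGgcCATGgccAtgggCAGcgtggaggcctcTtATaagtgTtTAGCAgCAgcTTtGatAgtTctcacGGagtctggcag
Pkm (chr9:59675568-59675734, plus strand): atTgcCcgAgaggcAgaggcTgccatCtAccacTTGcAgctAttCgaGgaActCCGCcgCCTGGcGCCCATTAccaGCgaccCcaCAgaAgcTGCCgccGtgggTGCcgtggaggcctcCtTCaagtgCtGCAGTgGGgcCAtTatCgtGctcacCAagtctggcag
U2af1 (chr17:31652502-31652568, minus strand): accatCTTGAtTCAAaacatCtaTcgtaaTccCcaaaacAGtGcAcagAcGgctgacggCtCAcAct
U2af1 (chr17:31651646-31651712, minus strand): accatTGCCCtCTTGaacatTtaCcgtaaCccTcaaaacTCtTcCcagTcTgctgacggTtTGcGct
Mapk14 (chr17:28737011-28737090, plus strand): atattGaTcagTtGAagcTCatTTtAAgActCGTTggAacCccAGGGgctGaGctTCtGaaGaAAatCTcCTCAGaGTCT
Mapk14 (chr17:28740680-28740759, plus strand): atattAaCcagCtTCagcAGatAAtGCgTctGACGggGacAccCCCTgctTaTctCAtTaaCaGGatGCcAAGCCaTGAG
Of 167 bases, 103 (61.7%) were identical between the exons of Pkm. The exons of U2af1 shared 44 of 67 bases (65.7%), and those of Mapk14 shared 39 of 80 (48.8%).

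Across all pairs the shares of the libraries lay close together. Pearson's r over the 1516 pairs was 0.920 and Spearman's coefficient 0.916. These points share library and depth, and the r is a description. The longer-spliced share had a median of 53.9% in the library labelled wild-type and 54.0% in the library labelled KO. The difference (KO minus wild-type) had a median of 0.08 points and quartiles of -4.64 and 4.47 points. By the 10-point rule, 373 pairs differed (24.6%), of which 197 were higher and 176 lower in the library labelled KO. Over all 2989 pairs of genes chosen the same way with different introns, first and last exon pairs included, 23.8% differed, 12.4% higher and 11.4% lower, so the share of called pairs among internal-exon pairs was near this background. Pairs with alternative first exons differed in 25.6% of cases and pairs with alternative last exons in 17.6%. The leading transcript of the pair was not the same in the 2 libraries for 167 genes.

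**Figure D1:**
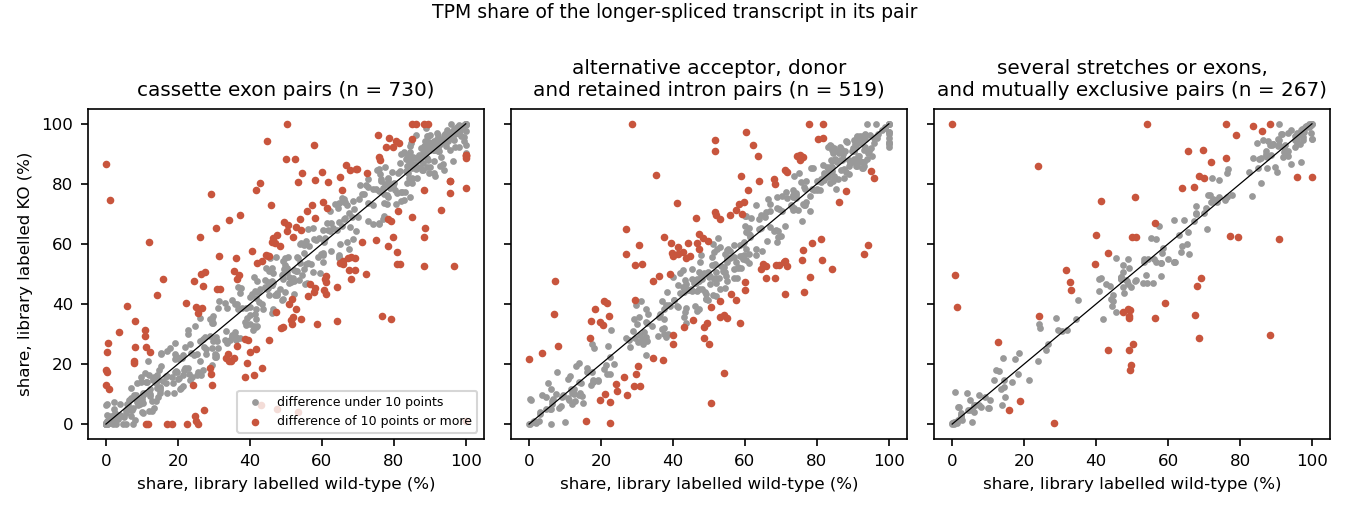
TPM share of the longer-spliced transcript (%) in the library labelled wild-type (x axis) against the library labelled KO (y axis), 1 point per pair, for cassette pairs (730), single alternative sites and retained introns (519) and the other pairs. Red points differ by 10 points or more and so lie off the diagonal, with a few near the corners, and grey points lie within 10 points of it.

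The rate of calls fell with the level of the gene. Among 249 pairs whose lower gene level was 10 to 20 TPM, 39.4% differed by 10 points or more in share. This was 27.8% of 540 pairs at 20 to 50 TPM, 22.0% of 378 pairs at 50 to 100 TPM, and 12.03% of 349 pairs at 100 TPM or more. At the 10 TPM floor itself, Dgkg (lower level 9.97 TPM) and Gstz1 (9.99 TPM) lay just outside, and 3830406C13Rik (10.02 TPM) and Mbnl3 (10.13 TPM) just inside. Their share differences were 16.1, 8.57, 4.70 and -13.8 points in that order.

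A share of TPM depends on how the reads of exons common to both transcripts were divided between them. For cassette exons the deposited tables allow a second measure from the same reads: the depth of the cassette, summed over all transcripts that hold it, as a percent of the mean depth of the internal exons shared by both transcripts. This exon-depth inclusion can exceed 100%, since depth is uneven along an mRNA. It was available for 704 of the 730 cassette pairs. The median inclusion was 44.4% in the library labelled wild-type and 41.5% in the library labelled KO, and r between the libraries over the 704 cassettes was 0.946. The median cassette carried 32.9 and 34.0 estimated read pairs.

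By exon depth 185 cassettes differed by 10 points or more (26.3%), 67 of them higher (9.52%) and 118 lower (16.8%) in the library labelled KO. The median difference was -1.79 points. Shared internal exons of the same genes, each taken against the others, showed how much such a depth ratio varies where no splicing difference between the 2 transcripts is annotated: 48.1% of 7007 differed by 10 points or more, at a typical level near 100%. On the log2 scale of the ratio KO to wild-type, the median size of the difference was 0.22 for cassettes and 0.15 for shared exons. The median itself was -0.09 for cassettes and -0.01 for shared exons. Of the 114 cassettes at 80% or more in both libraries, whose level is closest to that of shared exons, 35.1% differed by 10 points or more.

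The 2 measures often differed. Of 180 measured cassette pairs called by share, 53 were also called by depth in the same direction, 17 were called by depth in the opposite direction, and 62 had a depth difference under 5 points. Another 115 were called by depth and not by share. Across the 704 cassettes r between the share difference and the inclusion difference was 0.212 (Spearman's coefficient 0.292). Of 33 cassette pairs whose share differed by 25 points or more, 7 had a depth difference of at least 10 points in that direction, and 1 had one of at least 25 points.

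**Figure D2:**
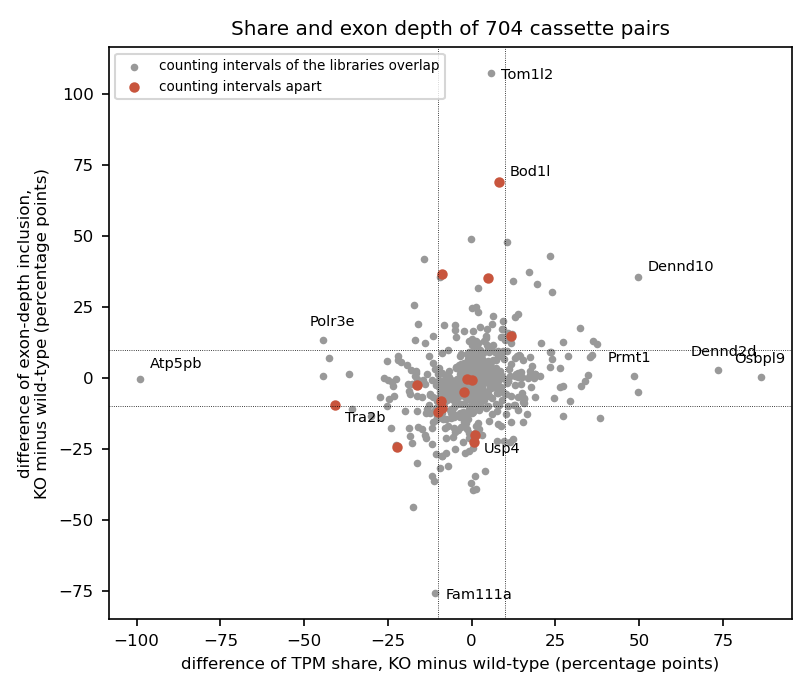
Difference of TPM share (x axis) against difference of exon-depth inclusion (y axis), both KO minus wild-type in percentage points, for 704 cassette pairs. Dotted lines mark 10 points, red points are the 15 cassettes whose counting intervals do not overlap, and the pairs with the largest share differences (Atp5pb, Osbpl9, Dennd2d) lie near 0 on the y axis.

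The pairs with the largest share differences showed this most plainly. Atp5pb, which encodes subunit b of the ATP synthase stalk, went from a longer-spliced share of 100% to one of 0.89%, with its shorter transcript listed at 0 and 250 TPM. Its cassette of 167 bases, which holds an annotated stop codon, had a depth of 9.003 and 10.1 reads per base, while shared internal exons averaged 506 and 754. Inclusion was therefore 1.78% (95% exact Poisson interval 0.8 to 3.3) and 1.34% (0.7 to 2.4), low in both libraries with overlapping intervals. Osbpl9, an oxysterol-binding protein gene, had shares of 0.11% and 86.5% and inclusions of 0.66% and 1.01%. For Osbpl9 the last exon of the longer-spliced transcript had a depth of 0.01 in the library labelled wild-type and 229 in the library labelled KO, and the ends of its transcripts lie 508 bases apart. Dennd2d, which encodes a DENN domain exchange factor, had shares of 1.03% and 74.5% and inclusions of 2.40% and 5.09%, on 3.1 and 7.8 read pairs.

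Prmt1, the main arginine methyltransferase of RNA-binding proteins, had shares of 12.01% and 60.5%. Its 54-base cassette had inclusions of 5.57% and 6.35%. Add1, the actin-spectrin linker adducin, had shares of 34.2% and 68.1% but inclusions of 10.7% and 9.61%, and in the TPM of all its 11 transcripts the longer-spliced form differed by only 1.65 points. For Clip2, which encodes a microtubule-binding protein, the shares were 43.0% and 6.46% while inclusion was 6.58% and 7.97% on 3.0 read pairs in each library. Polr3e, an RNA polymerase III subunit gene, went the other way by depth: its share was 96.8% and 52.5%, and its inclusion 85.3% and 98.7%, with overlapping intervals. In the T cell kinase gene Tec the share was 78.3% and 59.3% and inclusion 41.2% and 39.2%. In all 8 genes from Atp5pb to Tec the counting intervals of inclusion overlapped between the libraries.

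Dennd10, a second DENN domain gene, was the pair in which both measures differed by more than 25 points in 1 direction. Its share was 44.8% in the library labelled wild-type and 94.4% in the library labelled KO. The depth of its 80-base coding cassette was 25.2 and 46.4 reads per base against 53.8 and 56.3 in the shared exons, an inclusion of 46.8% (27.3 to 74.8) and 82.5% (56.2 to 117). Against its neighbouring exons alone it was 60.4% and 92.6%. The higher value stood in the library labelled KO by each measure, but the intervals overlap at 17.1 and 31.5 read pairs.

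The exon depth of 15 of the 704 cassettes had counting intervals that did not overlap between the libraries, 11 lower and 4 higher in the library labelled KO; they were picked out for this after their values were seen. Intervals take the read pairs on the cassette alone and leave out the error of the reference exons. Most of the 15 were long exons or exons of abundant mRNAs, where the counting error is small. In 9 of them the difference was also at least 10 points.

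**Figure D3:**
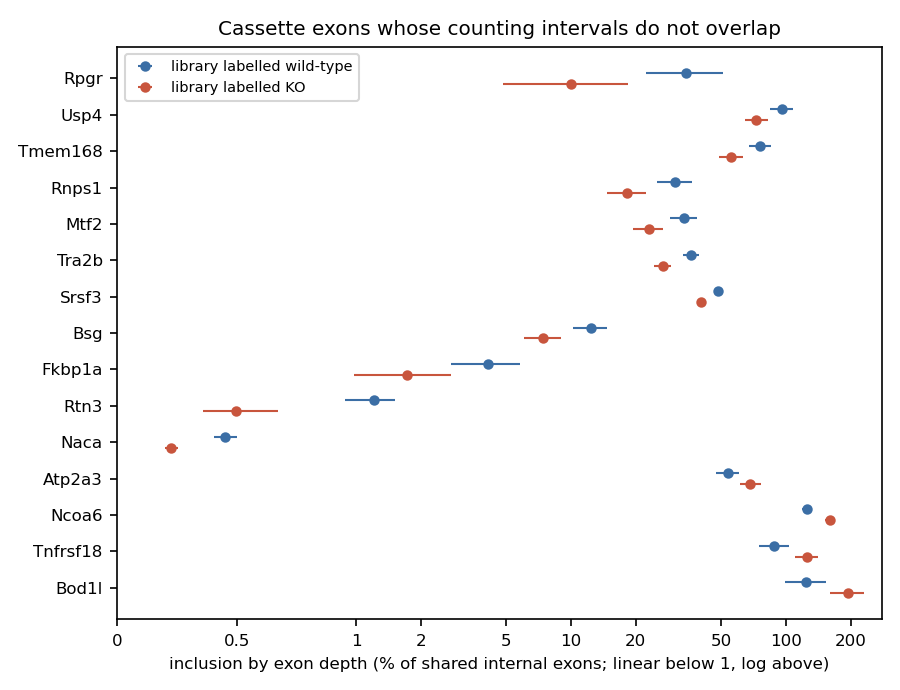
Exon-depth inclusion (% of the shared internal exons, x axis linear below 1 and log above) of the 15 cassettes whose 95% counting intervals do not overlap. Blue points are the library labelled wild-type, red points the library labelled KO and bars the intervals. The 11 genes from Rpgr to Naca are lower, and Atp2a3, Ncoa6, Tnfrsf18 and Bod1l are higher, in the library labelled KO.

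Rnps1, Tra2b and Srsf3, which are among the 11 lower cassettes, are in the list of splicing factors, which holds 19 of the 704 measured cassettes. Since the 11 were picked by their values, nothing is read from this count. Rnps1 encodes an activator of splicing that stays on the mRNA in the exon junction complex. Its 181-base second exon (chr17:24418038-24418218) had a depth of 101.02 and 85.3 reads per base, while its shared exons averaged 332 and 467. Inclusion was 30.4% (24.998 to 36.6) and 18.3% (14.8 to 22.4). Against the neighbouring exons it was 41.6% and 25.4%, and the TPM share was 29.5% and 19.6%, so all 3 values were lower in the library labelled KO.

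Tra2b encodes an SR-like splicing factor, and its second exon of 276 bases (chr16:22258986-22259261) is a poison exon with annotated stop codons. The depth of this exon, not scaled to library size, was 316 and 322 reads per base, while the shared exons stood at 872 and 1206. Total exon coverage was 4199 and 5076 megabases, so like depths are not like levels. Inclusion was 36.3% (33.1 to 39.6) and 26.7% (24.4 to 29.1), against the neighbouring exons 56.5% and 49.0%, and the TPM share 76.7% and 35.9%. The first exon of Tra2b, which is next to it, was also lower, at 46.7% and 36.7% of the shared exons. The last exon, which is not among the exons used for inclusion, stood at 37.8 and 367 reads per base. Its part in the share was not tested. Tra2b stands in a list of genes whose minigenes respond to NSrp70, with Cd44 and Fas.

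Srsf3 encodes the smallest SR protein, and its internal exon of 456 bases (chr17:29039454-29039909) holds a stop codon as well. Its depth was 918 and 1001 reads per base against 1894 and 2487 in the shared exons. Inclusion was 48.5% (46.5 to 50.5) and 40.2% (38.7 to 41.9), and against the neighbouring exons 45.3% and 38.2%. The share was 46.2% and 37.0%. The exon before it stood at 108% and 105% of the shared exons and the exon after it at 103% and 105%, so the neighbours lay closer together than the cassette did.

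**Figure D4:**
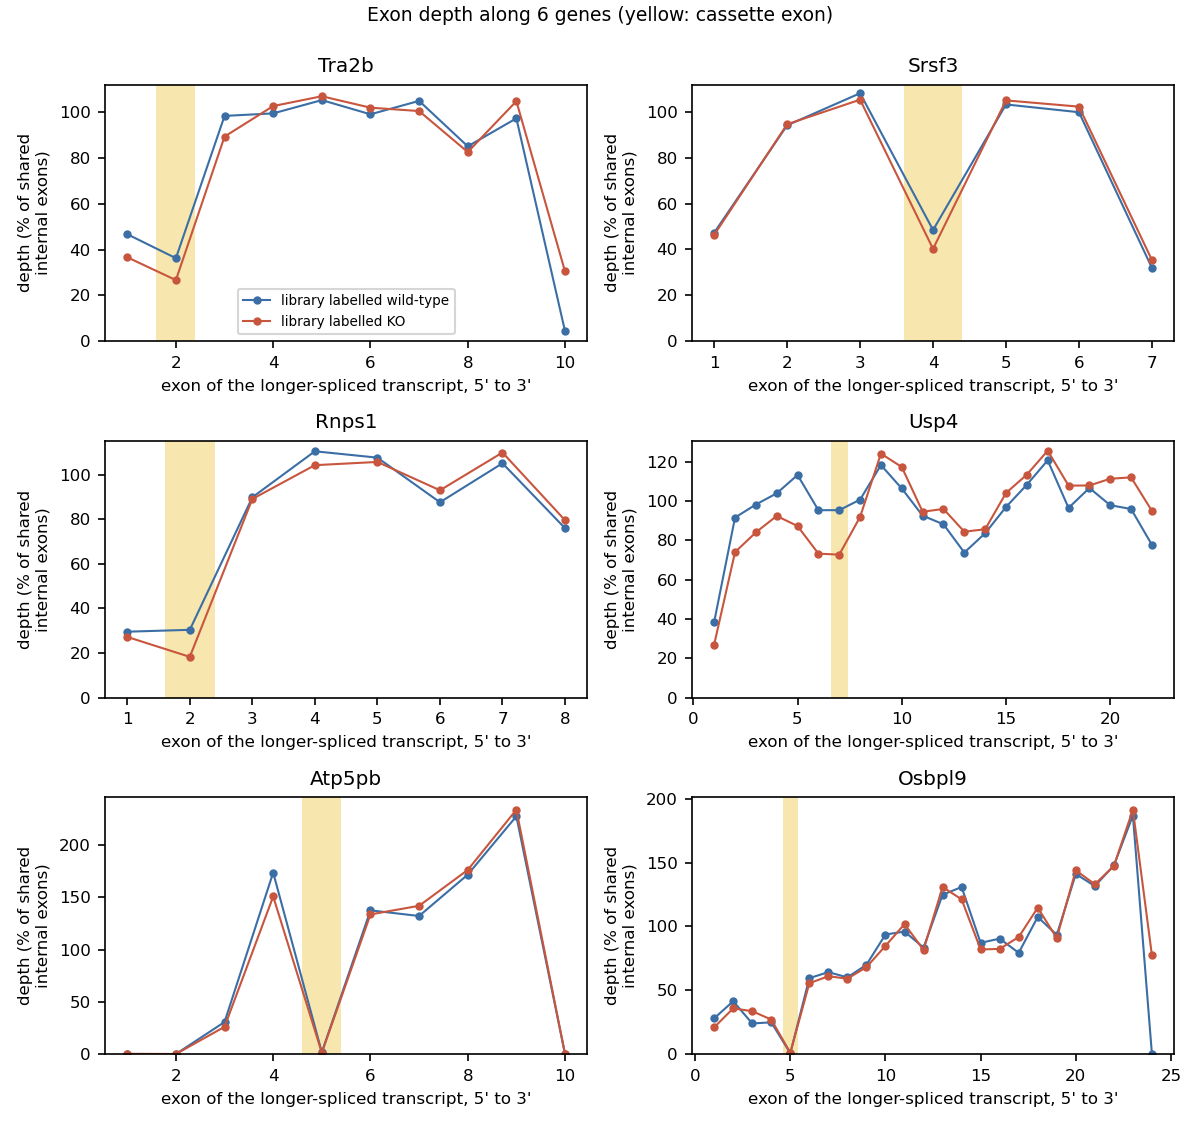
Depth of each exon of the longer-spliced transcript, 5' to 3' on the x axis, as a percent of the mean of the shared internal exons (y axis), in the library labelled wild-type (blue) and KO (red). The yellow band is the cassette exon. In Srsf3 and Rnps1 the libraries part at the cassette, in Usp4 they part over all exons from the first to the eighth, and in Atp5pb and Osbpl9 the cassette is near 0 in both.

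Usp4, a coding exon of which is printed above, had inclusions of 95.4% (84.5 to 107) and 72.7% (64.2 to 82.1). Its TPM share was 98.7% and 99.4%. The exons upstream were lower as well: exon 2 stood at 91.6% and 74.0% of the shared exons, exon 5 at 113% and 87.3%, and exon 6 at 95.4% and 73.3%, whereas exons 15 to 21 were at 96.0% to 121% and at 104% to 126%. The difference of the Usp4 cassette was thus shared by the 5' part of the mRNA and came to 96.5% and 85.1% against its neighbours.

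Other lower cassettes lay in genes of several roles. Mtf2, a Polycomb-associated protein gene, had an untranslated 362-base exon at 33.5% and 23.0% (neighbours 53.8% and 35.1%). Bsg encodes basigin (CD147), a partner of lactate transporters, and its 348-base coding exon was at 12.3% and 7.39% (neighbours 26.7% and 16.9%). Rpgr, which encodes a ciliary protein, had its 879-base exon at 34.4% and 10.1% (neighbours 29.3% and 5.31%) and a share of 24.8% and 2.57%. The level of Rpgr, 10.3 and 11.1 TPM, was just above the 10 TPM floor, and this exon carried 24.8 and 10.1 read pairs. Fkbp1a encodes FKBP12, the binding protein of tacrolimus, and its 235-base non-coding exon was at 4.09% and 1.72%. The rarely used long exons of Rtn3 (2124 bases, a reticulon of the endoplasmic reticulum) and Naca (5916 bases, a chaperone of nascent chains) were at 1.21% and 0.50%, and at 0.45% and 0.23%. All 6 were lower against their neighbours too. Tmem168 was not: its 1250-base exon was at 75.9% and 55.6% against all shared exons, but at 99.9% and 103% against its neighbours.

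The 4 higher cassettes held less well against their neighbours. Atp2a3, whose 73-base exon changes the C-terminal end of the pump, had inclusions of 53.6% (47.2 to 60.7) and 68.4% (61.0 to 76.5) and shares of 36.5% and 48.2%, but 45.9% and 46.9% against neighbouring exons. Ncoa6, a nuclear receptor coactivator gene, had its 2976-base exon at 125% and 160%, and at 102% and 90.2% against its neighbours, which reverses the direction. Tnfrsf18 encodes GITR, a costimulatory receptor, and its exon was at 88.0% and 125% (neighbours 127% and 141%). Its TPM share went the other way, at 96.4% and 87.6%, whereas the shares of Atp2a3, Ncoa6 and Bod1l were higher in the library labelled KO. The 141-base exon of Bod1l, a gene of replication fork protection, was at 124% and 194% (neighbours 120% and 139%).

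Bod1l was also 1 of the 5 cassettes with the largest called depth difference. The others were Tom1l2 (96.5% and 204%), Fam111a (164% and 87.8%), B4galt7 (171% and 220%) and Zfp322a (65.8% and 114%). All 4 had overlapping intervals. With neighbouring exons as the reference Tom1l2 came to 141.5% and 142.5%, and B4galt7 was lower in the library labelled KO, at 133% and 123%. Fam111a kept its values, because its neighbours are the only shared exons, at 19.3 and 43.0 read pairs.

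More cassettes were lower than higher in the library labelled KO, and the share that was lower differed along the mRNA. With neighbouring shared exons as the reference 262 of 728 cassettes differed by 10 points or more (36%), 111 higher and 151 lower. By any size, 425 of 704 were lower (60.4%), against 51.2% of the shared internal exons. Transcripts were split into 3 equal stretches by exon rank, not by bases. In the 5'-most stretch 68.4% of 2044 shared exons and 67.3% of 297 cassettes were lower. In the 3'-most stretch the figures were 33.5% of 2363 shared exons and 46.4% of 209 cassettes. Depth in the library labelled KO was thus lower towards the 5' end and higher towards the 3' end of the same mRNAs, as the Usp4 exons show. Against the internal exon on each side, 47.9%, 50.6% and 52.0% of shared exons were lower in the 5', middle and 3' stretch. That reference cancels most of a smooth gradient by construction, so it cannot show whether one is there. It also leaves out the internal exons next to the first and last exon. On that reference 220 of 381 cassettes were lower (57.7%), against 50.4% of 5045 shared exons, with medians of -1.35 and -0.10 points. By stretch, 50% of 112 cassettes were lower in the 5' stretch (median -0.09 points), 62.9% of 175 in the middle and 57.4% of 94 in the 3' stretch. The part of RNA quality or of library preparation in the gradient was not tested.

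**Figure D5:**
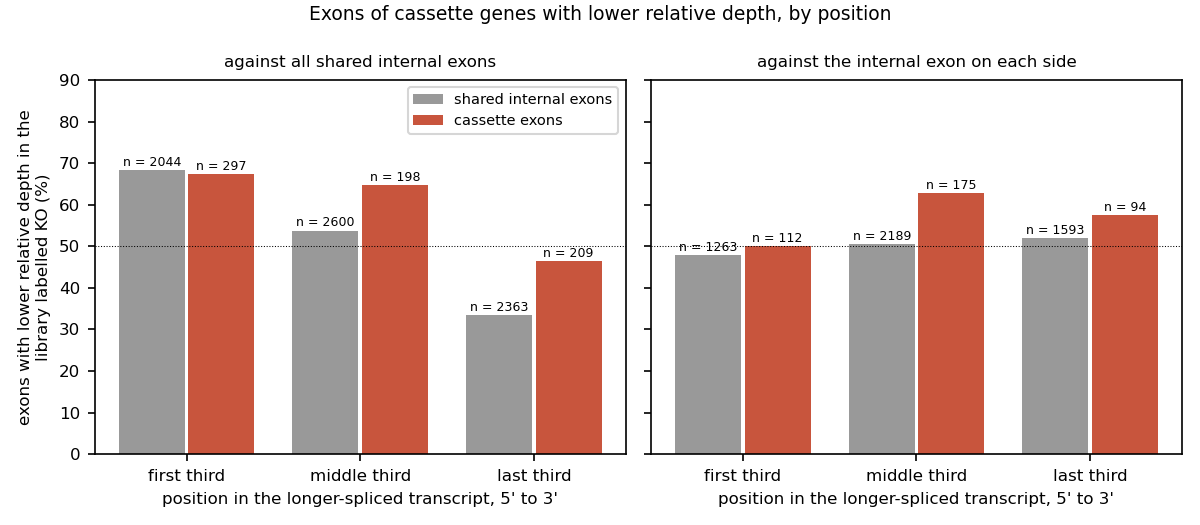
Percent of exons with lower relative depth in the library labelled KO (y axis, bars from 0) by stretch of the longer-spliced transcript (3 equal stretches by exon rank, x axis). Shared internal exons are grey and cassette exons red. Left, against all shared internal exons, the grey bars fall from 68.4% to 33.5%. Right, against the internal exon on each side, the grey bars stay between 47.9% and 52.0%, and the red bars stand at 50%, 62.9% and 57.4%.

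Long cassettes stood lowest as a group. Of the 32 measured cassettes over 300 bases, 27 were lower in the library labelled KO, 11 of them by 10 points or more against 3 higher, with a median of -6.11 points (-4.88 against neighbours). Shared internal exons over 300 bases were lower in 56.2% of 217 cases, with a median of -1.50 points. Of the 32 cassettes of 30 bases or fewer, 23 were lower, 6 by 10 points or more and 0 higher, with a median of -2.61 points. Coding cassettes whose length is a multiple of 3 (358 measured) had a median of -1.96 points, and those whose length is not (118) had a median of 0.05 points. The 77 that hold an annotated stop codon had a median of -1.61 points, with 7 called in each direction. The 37 that are partly coding and hold no stop codon had a median of -3.16 points, with 12 called lower and 1 higher. The 106 non-coding ones had a median of -1.89 points. Over all 704 measured cassettes 9.52% were called higher and 16.8% lower, with a median of -1.79 points. The values of these coding groups are against all shared internal exons, the reference on which the gradient was seen. The part of position along the mRNA in them was not tested.

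Differing stretches were more often a multiple of 3 long than shared exons were. Among cassettes, 453 of 730 (62.1%) had a length that is a multiple of 3, against 38.7% of 7050 shared internal exons. Among the 491 cassettes that lie wholly in coding sequence this was 73.9%. The extra bases of alternative acceptors were a multiple of 3 in 72.5% of pairs and those of donors in 62.4%. Cassettes had a median length of 91 bases, from 9 to 5916, and shared exons one of 117.

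Alternative acceptors were short shifts: 140 of the 385 were exactly 3 bases apart. The extra triplet could be read in 117 of these, and it was CAG in 84, AAG in 17, TAG in 13, GAG in 2 and ATG in 1. Acceptors this close are known as tandem acceptors, of which either AG can end the intron. By share, 25.7% of the 140 differed by 10 points or more, and their depth share, defined next, was 52.4% and 54.4% at the median.

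For single alternative sites and retained introns, the depth of the longer exon form was taken as a percent of both forms over all transcripts of the gene. Here too both values rest on how reads were divided between forms, so this is a second view and not a check. Of 519 pairs, 89 differed by 10 points or more in this depth share (17.1%), 46 higher and 43 lower in the library labelled KO. By TPM share 129 differed, 70 pairs were called by both in the same direction and 0 in opposite directions, and r between the differences was 0.832 over 519 pairs.

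Several of the named pairs kept their difference on this measure. The Ctdspl2 acceptor adds the triplet AAG, and its longer form was at 44.4% and 93.8% by depth share and at 51.6% and 94.6% by TPM share. Depths, not scaled to library size, were 14.9 and 86.6 reads per base for the longer exon form and 18.6 and 5.68 for the shorter. The longer form was thus higher in the library labelled KO. The level of the gene was 41.1 and 37.1 TPM, of which the pair held 68.2% and 94.1%. The part of read division among its 3 transcripts in this difference was not tested. Tent4b, a non-canonical poly(A) polymerase gene, has acceptors 26 bases apart and depth shares of 28.4% and 78.8%, on depths of only 5.73 to 26.4. Tnpo3 had depth shares of 10.2% and 31.3% and TPM shares of 7.22% and 47.8%, and the ends of its transcripts lie 506 bases apart. In Cnot1 the depth share was 83.7% and 91.2% and thus differed by less than 10 points, while the TPM share was 51.7% and 90.8%.

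Longer forms that were lower in the library labelled KO included Prpf19, with depth shares of 31.4% and 9.18% and TPM shares of 54.3% and 16.9%. Pogz had depth shares of 92.8% and 71.7%, and Adam17 had 24.8% and 9.11%. The 50-base acceptor shift of Stat3, which separates the full-length alpha form from the truncated beta form of this transcription factor, had a depth share of 81.0% and 82.8%, so the libraries were nearly level, though its TPM share was 68.2% and 81.7%. Among abundant genes outside the naming rule, chosen after their values were seen, Lsp1 (a leukocyte actin-binding protein) had depth shares of 28.3% and 63.3% and Dhx15 (a spliceosome-disassembly helicase) had 86.2% and 69.04%. Nolc1, a nucleolar protein gene, had depth shares of 47.3% and 6.96% but TPM shares of 50.3% and 46.7%.

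Pairs that differ by several stretches have no single exon to read, and their whole exons were looked at singly. Gprasp1, which sorts G protein-coupled receptors, had a share of 88.3% and 29.8%. The 2 exons of its longer form were at 58.0% and 39.6%, and at 115% and 66.9%, of the shared exons, and the exon of the shorter form at 11.1% and 31.3%, all in the direction of the share. Tmem184b, a membrane protein gene, had shares of 54.0% and 100% and both extra exons higher (85.3% and 133%, 63.6% and 89.2%).

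Klc1, Nnt and Hdac10 also differ by several stretches, and for these only the share is given. The shares of Klc1, a kinesin light chain gene, were 68.6% and 28.6%, those of Nnt (mitochondrial transhydrogenase) 1.46% and 38.8%, and those of Hdac10 59.3% and 40.5%. The ends of the Nnt transcripts lie 1210 bases apart. In the TPM of all transcripts of Hdac10 the longer-spliced form differed by only -7.13 points. Cwc22, a spliceosome protein gene that loads the exon junction complex, had shares of 41.5% and 74.3%, while its 61-base extra exon was at 11.5% and 9.34%. Arhgef1, a GTPase exchange factor gene of lymphocytes, had shares of 39.8% and 53.2%, while its 12-base exon was at 34.2% and 31.2%. Spry1, an inhibitor of ERK signalling, is a cassette pair and had shares of 53.3% and 4.13%. Its 289-base exon had depths of 7.36 and 4.09 with no shared internal exon to compare.

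Of 22 mutually exclusive pairs 3 were called by TPM share, beside 24.6% of all pairs, and 2 by the depth share of the 2 exons (9.09%), and the median size of the depth difference was 4.07 points. In Pkm the M1 exon had a depth of 150 and 133 reads per base and the M2 exon one of 885 and 1238. The M1 exon thus held 14.5% (95% Clopper-Pearson interval 12.5 to 16.8) and 9.68% (8.19 to 11.3), and the intervals did not overlap. Actn1, which encodes alpha-actinin, was the other pair whose intervals were apart, at 84.1% (81.1 to 88.3) and 92.5% (89.9 to 95.2). The exons of Actn1 have 81 and 66 bases, and its intervals are of the share of estimated read pairs, not exactly of the depth share. In U2af1 the first exon held 17.0% and 13.0%, and in Mapk14 the second of the printed exons held 19.2% and 21.7%. Pfkp, a phosphofructokinase gene, had 23.9% and 17.7% for the more 3' of its 2 exons. Galnt7, a glycosyltransferase gene, had the largest difference, 59.6% and 42.2%, with overlapping intervals.

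Fyn, the Src-family kinase next to the T cell receptor, uses 1 of 2 exons that make its brain and T cell forms. The 165-base exon of the brain form held 18.6% (16.3 to 22.4) and 14.8% (12.8 to 18.1) of their depth, so the T cell exon led in both libraries. The exon of the T cell form has 156 bases, so here too the intervals are of estimated read pairs and not exactly of the depth share. In the list of minigene targets, 2 of 3 genes were members, Tra2b and Cd44, the hyaluronan receptor. Of Cd44, the 10 variable exons were 0% to 11.3% and 0% to 5.65% of the shared exons, and the share of the variable form was 1.44% and 0.51%. That form was at only 0.22 and 0.06 TPM. With 1 TPM added to each transcript of the pair its share was 7.16% and 7.59%, so no direction is read.

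The gene lists are read against all members, of which 24.6% were called by share (197 higher, 176 lower) and, of 704 measured cassettes, 26.3% by exon depth (67 higher, 118 lower). Of the 137 names in the list of splicing factors and speckle proteins 51 were members, and 3 shares were higher and 6 lower by 10 points or more. Of its 19 measured cassettes, 3 were lower by 10 points or more (Mbnl3, Mbnl2, Rnps1), 0 were higher, and the median was -4.04 points, beside 118 lower, 67 higher and -1.79 points over all 704. The 54-base exon of Mbnl2 had a depth of 36.4 and 23.6 reads per base and inclusions of 36.4% (22.8 to 55.0) and 22.0% (12.1 to 36.7). Mbnl3, of the same muscleblind family, had 52.3% and 30.9%. Of genes chosen after their values were seen, as are the further genes of each list that were not called, Clk1, a kinase of SR proteins, was at 34.1% and 29.4%, Puf60 at 32.3% and 27.3%, and Hnrnpd at 49.1% and 51.6%. In Hnrnpab 46.7% and 44.8% were nearly level. Among splicing-factor acceptors, Prpf19 and Dhx15 were lower, as given above.

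T cell receptor signalling and surface genes had 32 members, of which 3 shares were higher and 1 lower, beside 24.6% called over all pairs. Of 20 measured cassettes 2 were higher and 3 lower by depth, with a median of -1.59 points. Map3k7 was at 51.6% (39.6 to 66.0) and 40.2% (29.8 to 53.1) and Pag1, a membrane adaptor gene, at 54.6% and 44.6%. The higher ones were Nfatc2 (61.6% and 97.1%), a calcineurin-regulated factor, and Tgfbr2 (31.5% and 41.6%), a TGF-beta receptor. Nfatc2 came to 43.3% and 44.8% against its neighbours. The abundant genes were nearly level: Cd8a was at 69.1% (65.8 to 72.6) and 69.5% (66.5 to 72.6), and the chemokine receptor gene Ccr9 was at 35.0% and 35.5%. Fyb, an adaptor of integrin activation, was at 23.7% and 19.2%, and Skap1, its partner, was at 28.4% and 26.7%.

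T lineage transcription factors had 12 members, 1 of them called by share (Stat3, higher), and of 6 measured cassettes 0 were called by depth. Ets1 was at 96.8% and 97.4%, Bcl11b at 39.8% and 43.5%, Runx1 at 85.2% and 85.0%, Myb at 14.3% and 15.1%, and Mef2d, whose 21-base exon is short, at 6.41% and 5.398%. At depths of 201 to 2850 reads per base, the exons of Ets1 and Bcl11b were among the best measured, and their intervals overlapped.

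Cytoskeleton, adhesion and trafficking genes had 39 members, with 5 shares higher and 1 lower, beside 197 higher and 176 lower of all 1516. Of 22 measured cassettes 3 were lower by depth (Gga3, Clasp1, Sptan1) and 0 higher, with a median of -2.07 points, beside 118 lower and 67 higher of all 704. Gga3, a trans-Golgi adaptor gene, was at 109% and 86.7% and Sptan1 at 80.3% and 67.1%. Clasp1, a microtubule plus-end protein gene, had a 24-base exon at 17.5% (5.5 to 41.5) under the wild-type label and listed at 0 under the KO label, where a count of 0 allows up to 12.4%. Chromatin and polymerase II regulators had 36 members (4 shares higher, 5 lower), a rate near the 24.6% of all pairs, and 1 of 12 cassettes was lower by 10 points or more.

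Apoptosis and survival genes had 11 members and 0 calls by share or, among 5 cassettes, by depth, with a median inclusion difference of -4.50 points; their extremes by share were Bclaf1 (41.9% and 32.6%) and Bnip2 (31.4% and 40.9%). Metabolic and mitochondrial genes had 15 members, with 4 shares higher and 1 lower, and 0 of 7 cassettes called; Aldoa, an aldolase of glycolysis, had shares of 54.0% and 68.5% but inclusions of 3.34% and 4.26%. Translation and RNA decay genes had 29 members, 3 higher and 5 lower by share, and 2 of 13 cassettes higher by depth: Exosc1, an RNA exosome subunit (80.4% and 97.6%), and Cnot4, a CCR4-NOT ubiquitin ligase (44.5% and 59.3%). Cnot4 came to 44.2% and 46.1% against its neighbours. Dis3l2, an exonuclease gene of uridylated RNA, had shares of 43.3% and 18.7% and inclusions of 14.9% and 7.48% on 4.9 and 2.9 read pairs, and Eef1d had shares of 30.6% and 65.4% but inclusions of 40.4% and 41.4%.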

How the data were processed

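RNA of sorted CD69+ DP thymocytes was sequenced in 1 library per genotype, with 101 bases per mate. The authors aligned reads with HISAT2 (version not stated) and estimated transcripts with StringTie 1.3.3b on mm10, per the submitters' processing notes. The deposited tables give TPM and FPKM per gene and transcript and read coverage (a signal of mean depth per base, not scaled to library size) per exon, per the file headers. The deposited exon coverage is divided between transcripts, so the depth of an exon was summed here over all transcripts that hold it. FPKM was not used in a result. No source used here gives strandedness, and overlapping genes on opposite strands may share reads.

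Pair shares, exon-depth inclusion and depth shares were computed with Python 3.11.15, numpy 2.4.6, pandas 2.3.3 and scipy 1.17.1, and figures with matplotlib 3.10.9. Read pairs on an exon were estimated from depth and length. The effective number of mates that overlap the exon, allowing for partial overlap, was divided by 2 mates per pair. Where only 1 mate of a pair lies on the exon, this count is too low and the interval too wide. Intervals are 95% exact Poisson (inclusion) or Clopper-Pearson (mutually exclusive exons) and cover counting error only, and a count of 0 was given a limit of 3 read pairs. The Clopper-Pearson intervals were computed on estimated read pairs, so they are not exactly those of the depth share where the 2 exons differ in length. The pair classification was tested on 200 simulated pairs, all recovered. No paired analysis, test or p-value was made with 1 library per group.

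The members and lists were chosen with earlier results of these data known. Named were the 10 pairs at each end of the share difference among genes with at least 20 TPM in each library, the highest and lowest member of each of 9 lists, and the 5 called cassettes with the largest depth difference. Predicted genes and RIKEN clones were only counted, and some genes that the rule names are not reported here. The neighbour reference, the counting intervals, the comparison with shared exons, position, coding context and the depth shares were added after seeing the data. Coding context and sequences come from GENCODE M21 (GRCm38).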

Additional observations from a re-analysis of the deposited data

How the results depend on the processing

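Counts of pairs called by share moved with the threshold: 714 at 5 points (357 higher, 357 lower in the library labelled KO) and 75 at 25 points (44 higher, 31 lower). With a gene minimum of 30 TPM, 203 of 1054 pairs were called (109 higher, 94 lower), and with pairs of at least 90% of the gene's TPM, 224 of 1125 (121 higher, 103 lower). Both settings test fewer pairs. Cassette calls by exon depth were 367 at 5 points, 36 at 25 points, 96 of 479 at a gene minimum of 30 TPM, and 9 where counting intervals also had to lie apart. Against neighbouring exons the difference of Ncoa6 turned to -12.2 points, that of Tmem168 turned to 3.32 points, and that of Atp2a3 came to 1.03 points; the cause was not tested. Of 40 named pairs, 38 kept their side of the threshold with a pseudocount of 1 TPM and 36 with the gene's TPM as denominator. No paired analysis was possible because each group has 1 library, and for the same reason no replicate could be left out. Depth limits single cassettes: the median cassette carried an estimated 32.9 and 34.0 read pairs.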
